A study of Rattus norvegicus with 12 samples.

Results

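L-acetyl-carnitine (LAC) responders were compared with vehicle-treated rats in the ventral dentate gyrus, the granule cell region at the ventral end of the hippocampus. The comparison takes 6 of the 12 libraries of the series, chosen by their labels: 3 from LAC responders and 3 from FSL vehicle. All rats were male, of Sprague-Dawley strain and, in both of these groups, of the Flinders Sensitive Line (FSL), a line bred from Sprague-Dawley stock and widely used as a rat model of depression. For 7 days responders drank tap water that held 0.3% LAC (w/v), which gave them roughly 210 mg of LAC per kg body weight each day, and FSL vehicle rats drank plain tap water. The other 6 libraries are 3 from FSL given the same LAC and labelled as not responding, and 3 from the vehicle-treated Flinders Resistant Line (FRL), the control line. The sources used here do not give the age of the rats, how many rats a library holds or what made a rat a responder. FSL vehicle is a single undivided group, so a trait that responders had before LAC and an effect of LAC cannot be told apart. Libraries of a group are labelled as biological replicates, and the p-values measure the spread between them.

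LAC is the acetyl ester of carnitine, the molecule that carries fatty acids into mitochondria, and it can hand its acetyl group to coenzyme A, the acetyl donor of both energy metabolism and histone acetylation. The dentate gyrus receives the main cortical input to the hippocampus, forms new granule neurons in adult life, and its ventral part is linked to mood and stress. The tissue lies close to the meninges, which cover the brain with fibroblasts, collagen and vessels, to the choroid plexus, which secretes cerebrospinal fluid, and to the thalamus, so a dissected piece can hold cells of all of these.

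Counts in genes ranged from 6.15 to 7.57 M (M for mega) in FSL vehicle and from 7.55 to 8.14 M in responders. Several libraries stood apart in markers of neighbouring tissue. The 15 measured choroid plexus markers summed to 3840, 102 and 505 counts per M counts in genes (CPM) in FSL vehicle 1, 2 and 3, and to 79.8, 55.6 and 94.6 CPM in responder 1, 2 and 3. The 18 measured meningeal and fibroblast markers summed to 365, 1232 and 3937 CPM in FSL vehicle and to 401, 154 and 161 CPM in responders. Thus FSL vehicle 1 and, less so, FSL vehicle 3 were high in choroid plexus RNA, and FSL vehicle 3 and, less so, FSL vehicle 2 in meningeal RNA. Outside the compared groups, non-responder 1 had 6937 CPM of choroid plexus markers, and it enters the shared estimate of spread. Responder 1 went against its tissue label: C1ql2, a secreted protein of granule neurons, stood at 3.31 CPM there, against 42.5 and 55.6 CPM in the other responders and 53.1, 29.8 and 33.7 CPM in FSL vehicle. The transcription factor Prox1, which defines granule neurons, was at 9.19 CPM in the same library and at 51.6 to 129 CPM in the other 5. Tcf7l2 and Slc17a6, genes abundant in thalamic neurons, were high in responder 1. Tcf7l2 reached 156 CPM there and 20.4 CPM in the highest FSL vehicle library, and Slc17a6 reached 274 CPM there and 69.5 CPM in FSL vehicle 1. Calb2 was high in responder 1 too. These 3 are among 9 measured thalamic markers. The other 6, such as Zic1 at 9.25, 15.9 and 34.0 CPM against 6.62, 3.10 and 4.59 CPM, were lower in responders. Each of the 6 had an unadjusted p under 0.05 by the test described below, against 9.17% of all genes lower. The median log2 fold change of the 9 was -0.85. In bulk tissue, fewer cells of a type and less RNA per cell cannot be told apart.

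**Figure D1:**
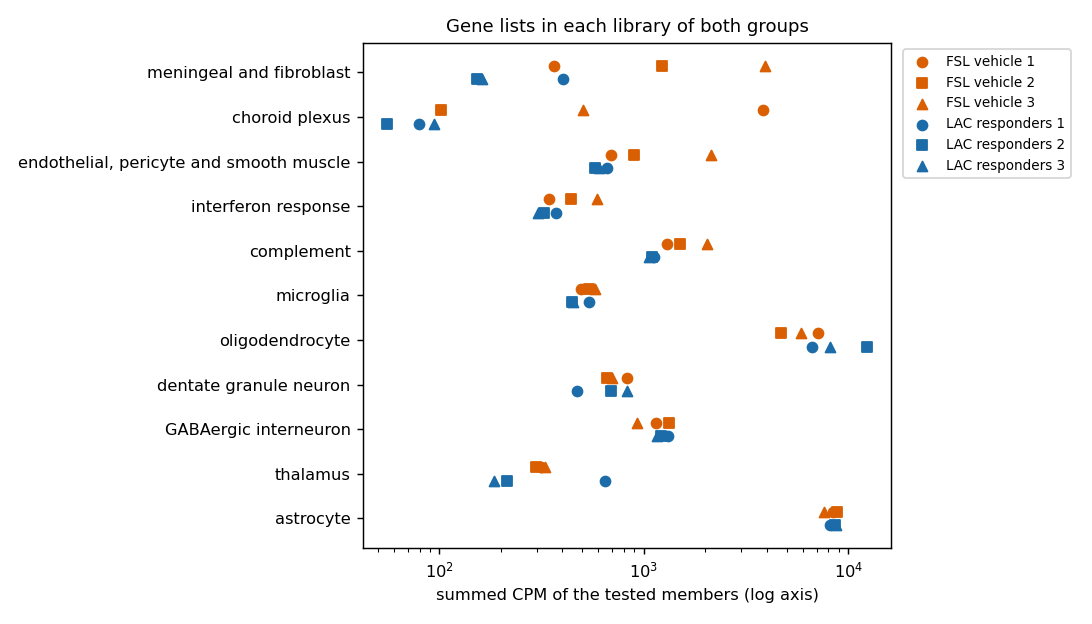
Summed CPM (log axis) of the tested members of 11 gene lists in each of the 6 libraries, with FSL vehicle in orange and LAC responders in blue and the symbol giving the replicate. Meningeal markers spread from 365 to 3937 CPM within FSL vehicle, while oligodendrocyte markers are highest in responder 2 at 12338 CPM.

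No gene differed between responders and FSL vehicle at an adjusted p of 0.05 (edgeR quasi-likelihood test with Benjamini-Hochberg adjustment over 11750 genes; smallest adjusted p = 0.237), a background of 0% called. By the same test 1619 genes, 13.8%, had an unadjusted p under 0.05, of which 542 (4.61%) were higher in responders and 1077 (9.17%) were lower. The 3 responder values lay apart from the 3 FSL vehicle values in 1469 genes (12.5%), 748 (6.37%) with responders above and 721 (6.14%) with responders below. The large differences were nearly all downward. Among tested genes 615 had a log2 fold change under -1 and 37 one over 1, although 52% of genes had a positive and 48% a negative one and the median was 0.01. DESeq2 called 178 genes (24 higher, 154 lower), limma-voom called 0, and without FSL vehicle 1 edgeR called 349 (16 higher, 333 lower). Values below are therefore descriptions of levels with their spread, and no gene named is past the adjusted threshold in the fit of all libraries.

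The 12 genes of smallest p that were higher in responders and the 12 that were lower, among genes whose groups did not overlap, are described first. Their adjusted p ran from 0.237 to 0.266 by edgeR. Vamp1, a vesicle protein of the SNARE complex that drives transmitter release at fast-firing synapses, stood at 192, 155 and 144 CPM in FSL vehicle and at 278, 235 and 253 CPM in responders. Each responder lay above each FSL vehicle library, a log2 fold change of 0.64 ± 0.11 (SE) or 1.56-fold. Its close relative Vamp2, the main vesicle SNARE of forebrain synapses, had -0.12 ± 0.15, with overlapping groups. Cabp1, a calcium sensor that tunes calcium channels, stood at 32.1, 36.0 and 32.8 CPM in FSL vehicle and 58.0, 48.5 and 48.5 CPM in responders (log2 fold change 0.62 ± 0.11). Its groups lay well apart, with little spread inside FSL vehicle.

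Lamp5, a membrane protein that marks neurogliaform interneurons, had 28.1, 31.1 and 32.5 CPM in FSL vehicle and 51.9, 54.9 and 63.4 CPM in responders. This 1.86-fold difference (log2 fold change 0.89 ± 0.17) was the largest of the 12 higher genes. The library with the highest level in FSL vehicle was still well under the lowest responder. Adarb1, the RNA-editing enzyme that recodes the AMPA receptor subunit transcript Gria2, had 304, 274 and 238 CPM in FSL vehicle and 428, 359 and 355 CPM in responders (0.48 ± 0.10). Nefh, the heavy neurofilament of large axons, had 126, 106 and 99.1 CPM against 137, 211 and 180 CPM, so that responder 1 lay close to FSL vehicle 1 (0.67 ± 0.15). Gpr158, a receptor-like protein of synapses, had 0.51 ± 0.12, and Adam23, a neuronal surface protein that binds the secreted synaptic protein LGI1, had 0.35 ± 0.08.

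Of the remaining higher genes, Olig2, the transcription factor of the oligodendrocyte lineage, stood at 29.4, 26.7 and 20.3 CPM in FSL vehicle and 38.1, 42.8 and 33.3 CPM in responders (log2 fold change 0.58 ± 0.14). Again no value of one group reached the other. Plekhm2, which couples lysosomes to the motor kinesin, had 119, 106 and 111 CPM against 142, 145 and 135 CPM, a narrow spread in both groups around a 1.26-fold difference. Tmem25 (0.46 ± 0.10), Bend6 (0.54 ± 0.11) and Eepd1 (0.48 ± 0.11) make up the rest.

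Among the lower 12, Tcn2, transcobalamin, which carries vitamin B12 in blood and delivers it to cells, stood at 38.1, 41.7 and 56.6 CPM in FSL vehicle and at 23.0, 26 and 18.4 CPM in responders. The responder mean was 2.02-fold lower (log2 fold change -1.02 ± 0.16) and the lowest FSL vehicle library still exceeded every responder. Sept9, a filament-forming septin, had 126, 121 and 137 CPM against 98.9, 95.7 and 92.3 CPM (-0.42 ± 0.07), a small difference with tight groups. Capn6, a member of the calpain family without protease activity that binds microtubules, had 8.28, 7.74 and 11.6 CPM against 3.55, 3.84 and 2.83 CPM (-1.43 ± 0.25).

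Serpinb1a, an inhibitor of neutrophil proteases, had 6.01, 6.97 and 9.66 CPM in FSL vehicle and 1.72, 2.48 and 1.75 CPM in responders, 3.78-fold lower (log2 fold change -1.92 ± 0.34). Cdkn1c, the cell-cycle inhibitor p57, had 11.2, 19.0 and 27.9 CPM against 6.25, 4.46 and 3.91 CPM, 3.96-fold lower (-1.98 ± 0.38). In both genes FSL vehicle 3 was highest, as it was in meningeal markers. Prelp, a matrix proteoglycan of connective tissue, had 37.0, 37.2 and 75.9 CPM against 15.8, 14.4 and 19.3 CPM (-1.60 ± 0.29). Erbb2, a receptor tyrosine kinase of the EGF receptor family, had 6.98, 5.93 and 11.3 CPM against 3.43, 3.59 and 3.24 CPM (-1.24 ± 0.25). Its responder values were almost equal, and the spread was in FSL vehicle.

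Lcp1, an actin-bundling protein of leukocytes and microglia, differed in this respect: FSL vehicle 1, not 3, was highest, at 107, 85.1 and 97.4 CPM against 45.7, 63.8 and 66.8 CPM in responders (log2 fold change -0.71 ± 0.13). Mylip, the ubiquitin ligase that targets the LDL receptor, was nearly constant in FSL vehicle at 51.0, 48.8 and 48.4 CPM and stood at 26.1, 35.3 and 35.6 CPM in responders (-0.61 ± 0.12). Responder 1 was the lowest library for both. Prkcd, the delta isoform of protein kinase C, which is abundant in thalamic neurons, had 40.4, 33.2 and 65.7 CPM against 18.0, 17.5 and 19.2 CPM (-1.35 ± 0.24), so responder 1 did not stand apart in it. Zic5 (-1.30 ± 0.26), a transcription factor, and Ccdc80 (-1.14 ± 0.22), a secreted matrix-binding protein, complete the 12.

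**Figure D2:**
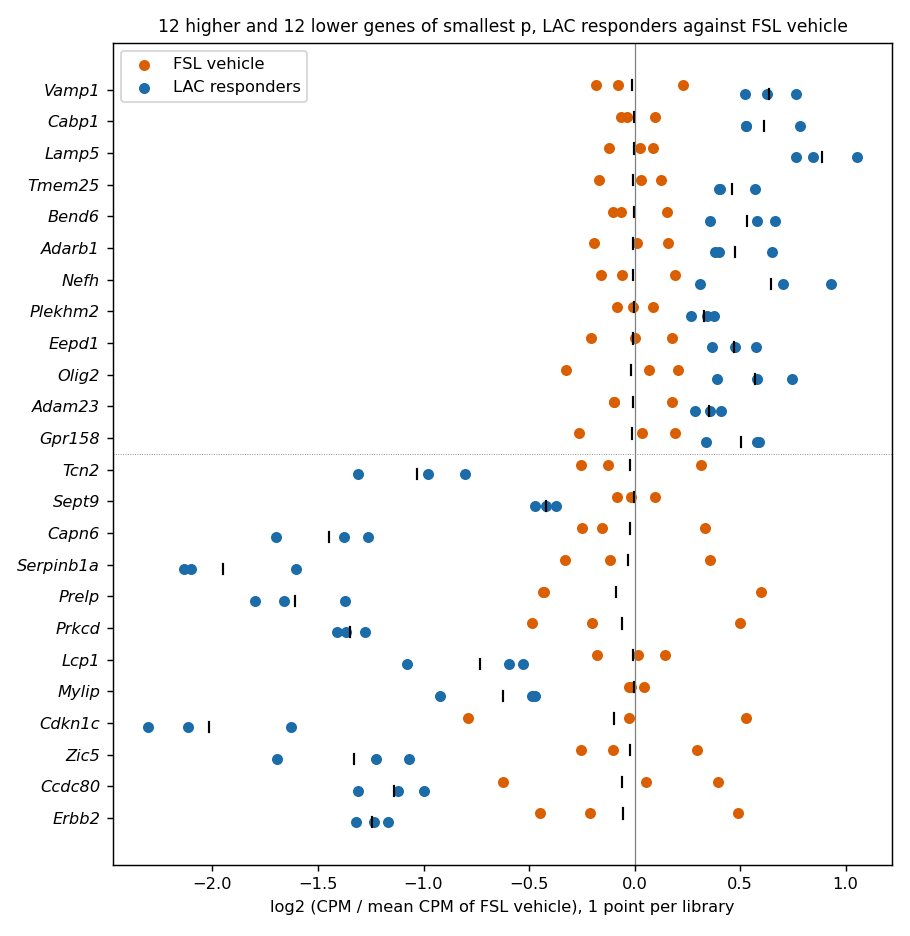
Each point is 1 library, placed by its CPM relative to the mean CPM of FSL vehicle on a log2 axis, for the 12 higher and 12 lower genes of smallest p; black ticks are group means of the plotted log2 values. Responders (blue) and FSL vehicle (orange) do not overlap in any of the 24, by the rule that chose them, and the lower genes spread more widely within FSL vehicle.

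These 24 genes were chosen for their small p in these same libraries, so their separation is a description. A small p or a call in a refit of these counts was favoured by that choice. Under each of 18 other fits, which changed the scaling, the filter, the tool, the covariates or the libraries, all 24 kept their direction and an unadjusted p under 0.05, and DESeq2 called 23 of them. With the mean of the meningeal markers as a covariate the log2 fold change of Tcn2 was -0.73, that of Prelp -1.10, that of Serpinb1a -1.90, that of Vamp1 0.49 and that of Cabp1 0.72. Without FSL vehicle 1, edgeR called 19 of the 24. Of all genes, DESeq2 called 178 of 12362, and edgeR without FSL vehicle 1 called 349 of 11884. Over all genes, 158 had an unadjusted p under 0.05 in the same direction in the fit of all libraries, in each of the 6 fits that leave out 1 library and with the meningeal covariate, 51 of them higher and 107 lower in responders. Usp31, a deubiquitinase, and Epdr1, an ependymin-related protein, were 2 of the 5 higher genes of smallest p among those called without FSL vehicle 1. Usp31 stood at 217, 193 and 172 CPM in FSL vehicle and at 242, 240 and 243 CPM in responders, and Epdr1 at 98.4, 85.0 and 73.4 CPM against 107, 106 and 106 CPM. In both, FSL vehicle 3 was lowest and FSL vehicle 1 came nearest to responders.

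Genes of the tissue's coverings and vessels were lower as groups. All 18 meningeal and fibroblast markers had negative log2 fold changes (median -2.67, against 0.01 for all genes), 17 with an unadjusted p under 0.05 against a background of 9.17% of all genes lower. In 3 of the 18 the groups did not overlap, against 6.14% of all genes with responders below. Dcn, the collagen-binding proteoglycan decorin, had 44.5, 94.2 and 173 CPM in FSL vehicle and 21.6, 29.4 and 24.2 CPM in responders (-2.06 ± 0.40). Igf2, insulin-like growth factor 2, which meninges and choroid plexus make in adult brain, had 138, 324 and 1231 CPM against 82.2, 29.9 and 32.7 CPM (-3.55 ± 0.73). Within FSL vehicle the order of the libraries was that of the marker sums, to which both genes contribute. The median was -1.49 without FSL vehicle 3, with 8 of 18 at that p, and -3.70 without responder 1, with 18. With the meningeal covariate, which is built from these same markers, it was 0.00. Of all genes 3.59% were lower at that p without FSL vehicle 3 and 8.85% without responder 1.

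In the basement membrane and matrix list all 27 tested members were lower (median log2 fold change -1.69). Of these 23 had an unadjusted p under 0.05, against 9.17% of all genes lower. Lamb2, the laminin chain of vascular basement membranes, had 93.0, 103 and 299.6 CPM in FSL vehicle and 63.6, 53.4 and 63.6 CPM in responders, and Loxl1, an enzyme that crosslinks elastin, 9.90, 17.2 and 43.0 CPM against 8.09, 6.32 and 7.29 CPM. FSL vehicle 3 was far above the rest in both. Without FSL vehicle 3 the median was -0.75 with 7 of 27 at that p, and with the meningeal covariate -0.15 with 2. Of all genes 3.59% were lower at that p without FSL vehicle 3 and 2.96% with the covariate. Of 19 endothelial, pericyte and smooth muscle genes 17 were lower, 14 of them with an unadjusted p under 0.05, against 9.17% of all genes (median -0.72). Pdgfrb, the pericyte receptor for platelet-derived growth factor, had 58.6, 64.9 and 147 CPM against 44.8, 49.1 and 47.0 CPM. The vascular median was -0.31 without FSL vehicle 3, with 1 of 19 at that p (3.59% of all genes). With the covariate it was 0.05, with 0 (2.96%). Without responder 2 the count was 5, and without responder 3 it was 9, against 6.8% and 6.3% of all genes. All 15 choroid plexus markers were lower (median -4.46), 11 with an unadjusted p under 0.05 (9.17% of all genes) and 4 without overlap (6.14%). The water channel Aqp1, 1 of these 4, had 55.0, 20.8 and 17.1 CPM against 3.43, 0.744 and 0.675 CPM. The choroid plexus median was -2.32 without FSL vehicle 1, with 2 at that p, against 11% of all genes lower. The count was also 3, 2 and 3 without responder 1, 2 and 3, against 8.85%, 6.8% and 6.3% of all genes. With the meningeal covariate all 15 had such a p, against 2.96% of all genes, and the median was -6.54.

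**Figure D3:**
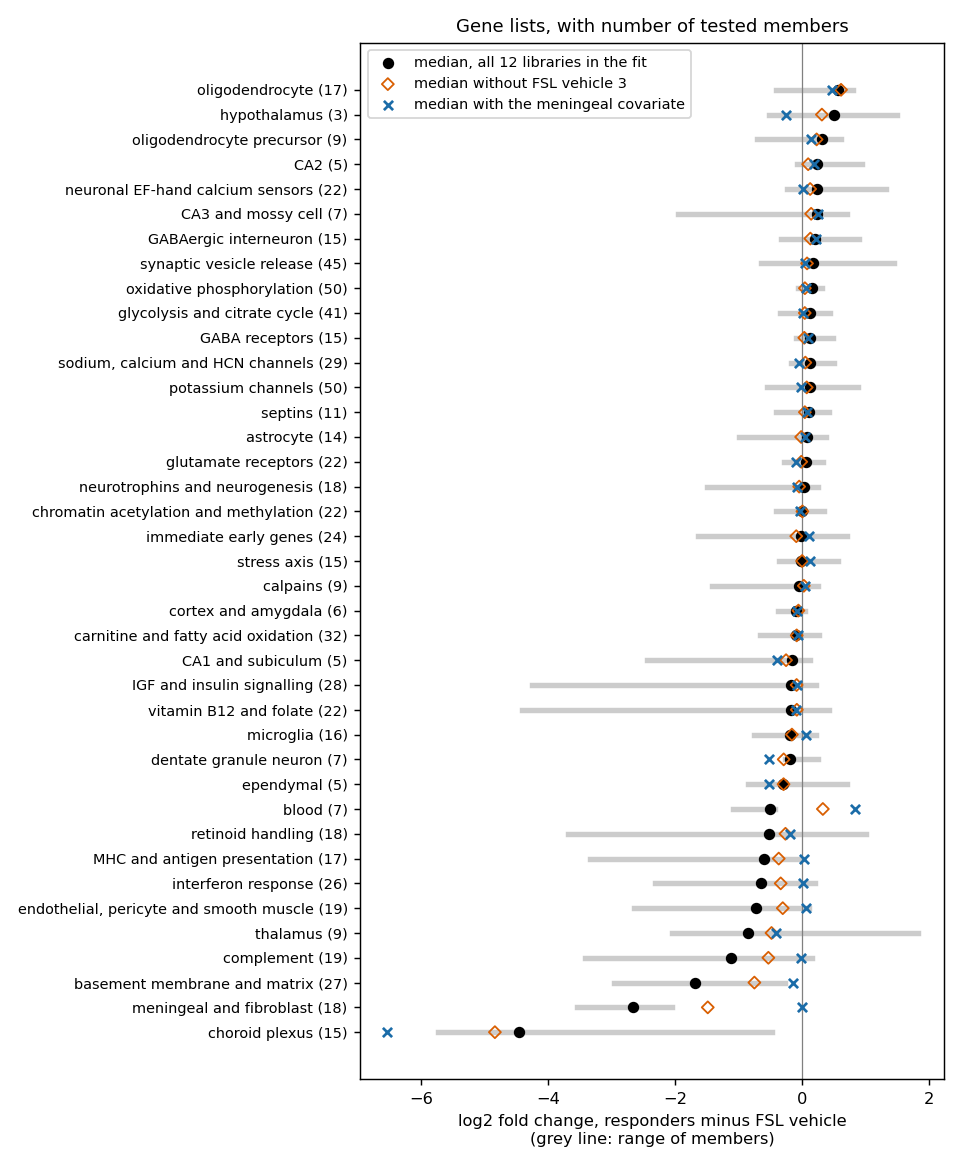
Log2 fold change of responders minus FSL vehicle for 39 gene lists: black points are medians over the tested members, grey lines span the lowest to the highest member, open diamonds are medians without FSL vehicle 3 and crosses are medians with the meningeal covariate. Matrix, complement, vascular, interferon and MHC lists lie left of 0 and move to between -0.15 and 0.05 with the covariate, while the oligodendrocyte median is 0.46, with 0 of 17 members at an unadjusted p under 0.05.

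Immune lists were lower in the same libraries. Of 17 genes of the major histocompatibility complex (MHC) and antigen presentation all were lower, 7 with an unadjusted p under 0.05 (median log2 fold change -0.59). Of 26 interferon response genes 25 were lower, 13 with an unadjusted p under 0.05 (median -0.66), and of 19 complement genes 17 were lower, 13 with an unadjusted p under 0.05 (median -1.12). The share of all genes lower at that p was 9.17%. Reads that align to several places were not counted, so levels of the RT1, Ifitm and Oas families and of C4a and C4b are uncertain.

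B2m, the light chain of MHC class I, stood at 280, 421 and 446 CPM in FSL vehicle and at 271, 260 and 229 CPM in responders (log2 fold change -0.59 ± 0.15). FSL vehicle 1, low in meningeal markers, lay just above responder 1. Cd74, the class II invariant chain of antigen-presenting cells, had 7.47, 47.6 and 157 CPM against 15.2, 3.72 and 1.75 CPM (-3.34 ± 1.02), and here the groups overlapped. Igtp, an interferon-induced GTPase, had 4.71, 6.19 and 7.56 CPM against 3.43, 4.09 and 2.56 CPM (-0.87 ± 0.25), and Irgm, of the same family, 6.17, 5.93 and 10.9 CPM against 4.53, 4.83 and 4.59 CPM (-0.72 ± 0.28). The groups were apart in both genes. C1s, a protease of the classical complement pathway, had 7.14, 24 and 52.2 CPM against 8.82, 5.58 and 6.21 CPM (-2.02 ± 0.57), and C1qa, a recognition chain of the same pathway counted here among microglial markers, 32.8, 38.7 and 43.8 CPM against 31.1, 29.1 and 27.5 CPM (-0.39 ± 0.18). Microglial markers as a list had a median of -0.20 (12 of 16 lower, 2 with an unadjusted p under 0.05, against 9.17% of all genes).

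Promoters of these lists are shown because most of their members were lower. Interferon-stimulated genes are known to carry the interferon-stimulated response element (ISRE), and class II genes a Y box. RefSeq promoters on the assembly GRCr8 were searched on both strands over 250 bases before the gene start, for GAAA, any pair of bases and GAAA as the ISRE, and for CTGATTGG as the Y box, overlapping matches included. An ISRE match was found in 15 of the 20 interferon list promoters at hand (75.0%), in 7 of 17 of the MHC list (41.2%) and in 0 of 10 of the complement list, against 3.32% of 27457 promoters and 2.57% of those of tested genes. A Y box match was found in 4 of 17 MHC list promoters (23.5%), against 3.23% of all and 4.48% of those of tested genes. The matches were in the class II genes RT1-Da and RT1-Db1 and in the class I genes RT1-A2 and RT1-S3. The share is therefore not one of class II genes alone. A match is a description, not a site of binding. The interferon list was drawn up from interferon-stimulated genes, so its share of matches does not bear on the levels here. Matches were also found in members that differed little, such as Ctss (log2 fold change -0.003) and Psme2 (-0.04), and in Oas1b (0.20), all with overlapping groups. The stretches below are written 5′ to 3′ on the strand of the gene, with the matched letters in capitals. Rsad2, with the match on the other strand, had overlapping groups and a log2 fold change of -0.24 ± 0.41. Groups also overlapped in Ifitm3 (-1.73 ± 0.51) and RT1-Da (-3.04 ± 1.03).
Igtp ISRE, chr10:42874914-42874983, plus strand: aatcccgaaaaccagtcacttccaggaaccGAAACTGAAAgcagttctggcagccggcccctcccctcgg
Irgm ISRE, chr10:33742579-33742642, minus strand: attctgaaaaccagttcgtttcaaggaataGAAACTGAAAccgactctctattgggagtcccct
Ifitm3 ISRE, chr1:205541763-205541832, minus strand: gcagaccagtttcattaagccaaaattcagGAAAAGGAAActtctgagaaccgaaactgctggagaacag
B2m ISRE, chr3:129549150-129549219, plus strand: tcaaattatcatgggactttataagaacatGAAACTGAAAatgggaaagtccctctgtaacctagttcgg
Rsad2 ISRE, chr6:48788228-48788297, minus strand: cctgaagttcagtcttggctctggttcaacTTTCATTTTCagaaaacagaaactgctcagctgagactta
RT1-Da Y box, chr20:4515333-4515400, plus strand: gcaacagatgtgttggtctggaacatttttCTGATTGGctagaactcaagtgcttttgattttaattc

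The immune lists moved with the meningeal markers across libraries. Summed levels of the interferon list were 346, 441 and 590 CPM in FSL vehicle 1, 2 and 3 and 373, 323 and 304 CPM in responders. The order within FSL vehicle was the order of the meningeal sums, and responder 1, highest of its group in them, was also highest in interferon genes. Complement genes summed to 1295, 1500 and 2042 CPM against 1125, 1098 and 1057 CPM. Without FSL vehicle 3 the medians were -0.37 for MHC, -0.34 for interferon and -0.53 for complement. The lower genes at an unadjusted p under 0.05 were then 1, 3 and 3, in place of 7, 13 and 13. Of all genes 3.59% were then lower at that p, in place of 9.17%. With the meningeal covariate the medians were 0.03, 0.02 and -0.02 and these counts 0, 0 and 1, against 2.96% of all genes. The interferon count was also 7 without responder 2 (6.8% of all genes) and 4 without responder 3 (6.3%). The MHC count was 11 without responder 1 (8.85%). Whether the amount of covering tissue in a dissected piece sets these levels was not tested.

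Carriers of vitamins, and growth factors with their binding proteins, held a few large differences among many small ones. Of 18 genes of retinoid handling 14 were lower, 10 with an unadjusted p under 0.05, against 9.17% of all genes (median log2 fold change -0.52). Without FSL vehicle 3 the median was -0.26 with 5 at that p, as many as without responder 3, and with the meningeal covariate it was -0.19 with 1 lower and 2 higher. Of all genes 3.59% were lower at that p without FSL vehicle 3 and 6.3% without responder 3. With the covariate 2.96% of all genes were lower and 2.41% higher. Crabp2, which carries retinoic acid to its receptor, had -2.87 ± 0.84 and Aldh1a2, which makes retinoic acid and marks meninges, -2.78 ± 0.82, both with overlapping groups and both also meningeal markers here. Of 22 vitamin B12 and folate genes 16 were lower, 4 with an unadjusted p under 0.05, against 9.17% (median -0.18). The count was 2 without FSL vehicle 3, without responder 2 or with the covariate, against 3.59%, 6.8% and 2.96% of all genes. Besides Tcn2, Slc19a1, the reduced folate carrier, had 12.5, 15 and 31.4 CPM against 9.56, 7.31 and 7.96 CPM (-1.24 ± 0.35). Lmbrd1, which lets vitamin B12 leave the lysosome, had 0.13 ± 0.12, with overlapping groups.

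Of 28 genes of insulin-like growth factor and insulin signalling 21 were lower, 7 with an unadjusted p under 0.05 (9.17% of all genes), and 2 of the higher 7 had one (4.61%), with a median of -0.18. The lower count was 3 without FSL vehicle 3 or responder 3, 4 without responder 2 and 2 with the covariate. Of all genes 3.59%, 6.3%, 6.8% and 2.96% were lower at that p in these fits, in the same order. The median was -0.09 without FSL vehicle 3, -0.35 without FSL vehicle 2 and -0.30 without responder 2. Igfbp2, a binding protein of the meninges and choroid plexus, had 60.5, 136 and 307 CPM in FSL vehicle and 29.0, 7.68 and 13.1 CPM in responders (-3.33 ± 0.75). The receptors differed little: Insr, the insulin receptor, had 103, 68.4 and 111 CPM against 92.0, 80.8 and 83.0 CPM (-0.14 ± 0.16), and Igf1r had -0.30 ± 0.19. Pdpk1, a kinase downstream of both, had 104, 101 and 97.1 CPM against 112, 121 and 117 CPM (0.21 ± 0.07), with all responders above all FSL vehicle libraries.

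Genes of carnitine and fatty acid oxidation, the pathway that LAC enters, differed by small amounts. Of 32 tested, 25 were lower, 5 with an unadjusted p under 0.05 (9.17% of all genes), and 2 of the higher 7 had one (4.61%), with a median log2 fold change of -0.11. Cpt1a, which loads fatty acids onto carnitine at the mitochondrial surface, had 62.2, 69.1 and 75.2 CPM in FSL vehicle and 56.7, 55.4 and 58.6 CPM in responders (-0.28 ± 0.09). Acadvl, the first dehydrogenase for very long chains, had 60.5, 68.5 and 71.5 CPM against 55.7, 57.9 and 54.0 CPM (-0.26 ± 0.09), and Eci1, an isomerase for unsaturated chains, 14.1, 18.8 and 24.9 CPM against 13.1, 12.8 and 10.7 CPM (-0.66 ± 0.18). In these 3 genes FSL vehicle 3 was highest and no value of one group reached the other. Crat, the acetyltransferase that moves acetyl groups between carnitine and coenzyme A, had 136, 129 and 112 CPM against 124, 123 and 130 CPM (0.00 ± 0.09). Acly, which makes acetyl coenzyme A from citrate outside mitochondria, had 308, 330 and 302 CPM against 381, 351 and 369 CPM (0.23 ± 0.08), and Acss2, which makes it from acetate, 0.26 ± 0.10. Without FSL vehicle 3 or responder 3, 3 were lower at an unadjusted p under 0.05, and with the meningeal covariate 0 were (median -0.07). The share of all genes lower at that p was 3.59%, 6.3% and 2.96% in these fits, in the same order.

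Of 50 oxidative phosphorylation genes 47 were higher, but 2 had an unadjusted p under 0.05, against 4.61% of all genes, and the median was 0.15. Of 41 genes of glycolysis and the citrate cycle 34 were higher, 5 with an unadjusted p under 0.05 (median 0.13). These counts depended on FSL vehicle 2, without which 35 of 50 (median 0.25) and 15 of 41 (median 0.20) were higher at such a p. In that fit 11.2% of all genes were higher at that p. The medians were 0.04 for both without FSL vehicle 3, and 0.05 and 0.02 with the meningeal covariate. In neither list was any gene higher at that p once FSL vehicle 3 was left out (0 of each), against 1.79% of all genes. The glycolysis count was also 1, 2 and 3 without responder 1, 2 and 3, and the oxidative phosphorylation count was 0 without responder 1 and 1 without FSL vehicle 1, responder 2 or responder 3. Of all genes 3.44% (without responder 2) to 5.23% (without FSL vehicle 1) were higher at that p in these fits. Chromatin acetylation and methylation enzymes had a median of -0.01, with 0 of 22 at an unadjusted p under 0.05. Without FSL vehicle 2, 6 were lower and 1 higher at that p, against 13.9% and 11.2% of all genes.

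Lists of neuronal cell types did not share a direction. Of 7 dentate granule neuron markers 6 were lower, with 0 at an unadjusted p under 0.05 (median log2 fold change -0.20), and the median was 0.20 without responder 1. CA1 and subiculum markers had a median of -0.16 (4 of 5 lower) and those of cortex and amygdala -0.10 (5 of 6 lower). The CA2 median was 0.24, and -0.01 without responder 1. For CA3 and mossy cells it was 0.23, and -0.003 without responder 3. Neither of these last lists had a member at an unadjusted p under 0.05 in the fit of all libraries.

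Functional lists leaned upward by small amounts. Of 45 genes of synaptic vesicle release 36 were higher, 8 with an unadjusted p under 0.05 (4.61% of all genes), and 1 was lower at that p (9.17%), with a median log2 fold change of 0.16. Besides Vamp1, Synpr, a vesicle membrane protein of mossy fibres, had 111, 110 and 84.1 CPM in FSL vehicle and 156, 118 and 139 CPM in responders (0.44 ± 0.17), and Sv2a, a vesicle glycoprotein and antiepileptic drug target, 537, 522 and 436 CPM against 559, 620 and 569 CPM (0.22 ± 0.09). In both, FSL vehicle 3 was lowest and the groups were close at their nearest values. Unc13c, a priming factor, had 54.0, 58.7 and 56.7 CPM against 293, 86.9 and 80.6 CPM, all responders above FSL vehicle and responder 1 far above the rest. Its log2 fold change was 1.44 ± 0.43, and 0.57 without responder 1. The SNARE protein Vamp8 of endosomes and secretory granules, named after its values were seen, ran the other way at 8.76, 11.2 and 13.6 CPM against 6.49, 5.33 and 5.80 CPM (-0.93 ± 0.19).

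Of 22 EF-hand calcium sensors of neurons 18 were higher, 6 with an unadjusted p under 0.05, against 4.61% of all genes (median log2 fold change 0.23). Calm2, one of the genes that make calmodulin, had 0.23 ± 0.10, while Calb2, calretinin, had 20.0, 12.5 and 21.1 CPM against 100, 16.4 and 17.4 CPM, again with responder 1 apart. Of 29 sodium, calcium and HCN channel genes 3 were higher at an unadjusted p under 0.05, against 4.61%, among them Scn1a, the sodium channel of inhibitory neurons, at 297, 236 and 262 CPM against 372, 411 and 338 CPM (0.50 ± 0.17). Potassium channels had a median of 0.12, with 4 of 50 higher (4.61% of all genes) and 2 lower (9.17%) at that p, and glutamate receptors had 0.06 with 0 of 22.

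These leanings shrank or turned with the meningeal covariate. Its medians were 0.05 for vesicle release, 0.01 for calcium sensors, -0.02 for potassium channels, -0.06 for sodium, calcium and HCN channels and -0.10 for glutamate receptors, of which 7 of 22 were then higher. Without FSL vehicle 3 the medians were 0.08, 0.12, 0.07, 0.05 and -0.02 in the same order. The genes higher at an unadjusted p under 0.05 were then 3 of 45 for vesicle release, 2 of 22 for calcium sensors, 1 of 50 for potassium and 1 of 29 for the other channels. Of all genes 1.79% were higher at that p in that fit. With the covariate the counts were 4, 2, 2 and 1, against 2.41% of all genes. With any other single library left out they ran from 4 (responder 2) to 12 (FSL vehicle 2) for vesicle release and from 4 to 6 for calcium sensors. For potassium channels they ran from 1 (FSL vehicle 2) to 9 (responder 1), and for the other channels from 1 (responder 2 or 3) to 7 (FSL vehicle 1). In these fits the share of all genes higher at that p ran from 3.44% (responder 2) to 11.2% (FSL vehicle 2).

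Of 15 markers of GABAergic interneurons 12 were higher, 3 with an unadjusted p under 0.05, against 4.61% of all genes, and 4 had groups that did not overlap, against 6.37% (median log2 fold change 0.20). Gad2, an enzyme that makes GABA, had 137, 131 and 113 CPM in FSL vehicle and 180, 142 and 163 CPM in responders (0.35 ± 0.10). Pvalb, the calcium buffer of fast-spiking interneurons, had 38.3, 43.0 and 30.9 CPM against 45.0, 61.2 and 52.0 CPM (0.49 ± 0.20), and Slc32a1, the vesicular GABA transporter, 35.1, 25.9 and 33.2 CPM against 41.7, 35.8 and 35.6 CPM (0.27 ± 0.13). Sst, the peptide somatostatin of another interneuron class, overlapped (0.48 ± 0.29). The median was 0.13 without FSL vehicle 3, 0.13 without responder 1 and 0.21 with the meningeal covariate. Of 15 GABA receptor genes 13 were higher, 2 with an unadjusted p under 0.05 (median 0.12).

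Oligodendrocyte genes were higher in most members. Of 17 markers 16 were higher, 8 with an unadjusted p under 0.05, against 4.61% of all genes, and in 2 the groups did not overlap, against 6.37% (median log2 fold change 0.57). Cnp, a myelin enzyme, had 388, 308 and 321 CPM in FSL vehicle and 391, 664 and 465 CPM in responders (0.58 ± 0.22). Responder 2 was highest, and responder 1 hardly exceeded FSL vehicle 1. The median was 0.29 without responder 2, with 0 of 17 at an unadjusted p under 0.05, and 0.74 without responder 1, with 11. Without FSL vehicle 2 (median 0.44) or FSL vehicle 3 (0.61) 1 of 17 had such a p, without responder 3 it was 5, and with the meningeal covariate 0 (0.46). The share of all genes higher at that p was 11.2% without FSL vehicle 2. It ran from 1.79% (without FSL vehicle 3) to 3.63% (without responder 1) in the other fits named here. Olig2 belongs with the 9 precursor genes, of which 3 were higher at that p and 1, Pdgfra, was lower at 166, 226 and 372 CPM against 176, 137 and 153 CPM (-0.72 ± 0.23). Pdgfra is also made by meningeal fibroblasts.

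Genes followed for stress and mood differed little. The metabotropic glutamate receptor Grm2 had 94.8, 90.6 and 79.2 CPM in FSL vehicle and 42.1, 97.4 and 77.3 CPM in responders (log2 fold change -0.29 ± 0.24), the low value being that of responder 1. Without responder 1 its log2 fold change was -0.01. The glucocorticoid receptor Nr3c1 had -0.04 ± 0.12, the mineralocorticoid receptor Nr3c2 0.00 ± 0.34, the receptor co-chaperone Fkbp5 -0.25 ± 0.26, the stress peptide Crh -0.02 ± 0.42 and the neurotrophin Bdnf 0.24 ± 0.19, all with overlapping groups. Sgk1, a kinase induced by glucocorticoids, lay apart at 187, 174 and 191 CPM against 223, 320 and 214 CPM (0.46 ± 0.14; adjusted p above the threshold by edgeR, as for all genes). Immediate early genes, which mark recent neuronal activity, had a median of -0.02, with 12 of 24 higher and 12 lower. Of these 1 was lower at an unadjusted p under 0.05, against 9.17% of all genes. Neurotrophin and neurogenesis genes had a median of 0.03, with 2 of 18 lower (9.17% of all genes) and 0 higher (4.61%) at that p. Without FSL vehicle 2, 1 was lower and 3 were higher. Of all genes 13.9% were lower and 11.2% higher at that p in that fit.

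The non-responders and FRL vehicle place these levels in the series. Both LAC groups were set against the same FSL vehicle libraries, so their differences from it are not independent. In all 24 genes of smallest p the non-responder mean lay on the responder side of FSL vehicle. Choosing genes on their FSL vehicle values favours this, and the share over all genes was not counted. Vamp1 had 243, 221 and 236 CPM in non-responders, Lamp5 54.9, 52.7 and 52.2 CPM, and Capn6 2.64, 4.22 and 3.11 CPM, all near the responder values. Tcn2, at 31.5, 37.3 and 31.7 CPM, and Sept9, at 112, 114 and 117 CPM, lay between responders and FSL vehicle. In 16 of the 24, FSL vehicle lay outside all 9 other libraries of the series, below them in 9 and above them in 7. This held in 1.65% of all tested genes, and the 24 were chosen on FSL vehicle values.

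Tested directly, responders and non-responders differed in 0 genes at an adjusted p of 0.05 (edgeR quasi-likelihood, Benjamini-Hochberg; smallest adjusted p = 0.992), and 369 genes, 3.14%, had an unadjusted p under 0.05. Against FSL vehicle, 4.21% of genes had such a p in non-responders. Among the 24, 11 had an unadjusted p under 0.05 in this direct test, such as Tcn2 (log2 fold change of responders minus non-responders -0.57 ± 0.16) and Sept9 (-0.26 ± 0.07). The 24 were chosen on these same responder values, which favours such a count, so it is a description only. Vamp1 had 0.13 ± 0.11 and Lamp5 0.09 ± 0.17, and Capn6 had 0.04 ± 0.26. In these the direct test did not separate the LAC groups.

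**Figure D4:**
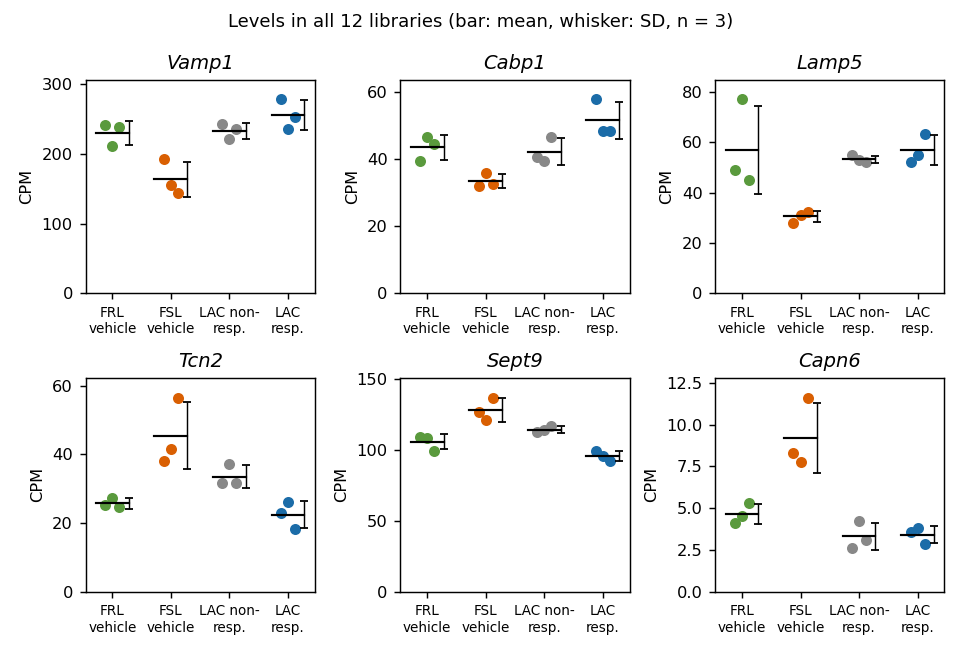
CPM of 6 genes in all 12 libraries, with 1 point per library and a bar and whisker for mean and SD (n = 3). In Vamp1 and Lamp5 the FSL vehicle points lie below those of the other 3 groups, and in Capn6 and Tcn2 above them.

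The number of genes leaning each way depended on single control libraries. With FSL vehicle 3 left out, 637 genes had an unadjusted p under 0.05, with FSL vehicle 2 left out 2986, and with the meningeal covariate 631. More genes were lower than higher under each of the 19 settings plotted, the fit of all libraries included.

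**Figure D5:**
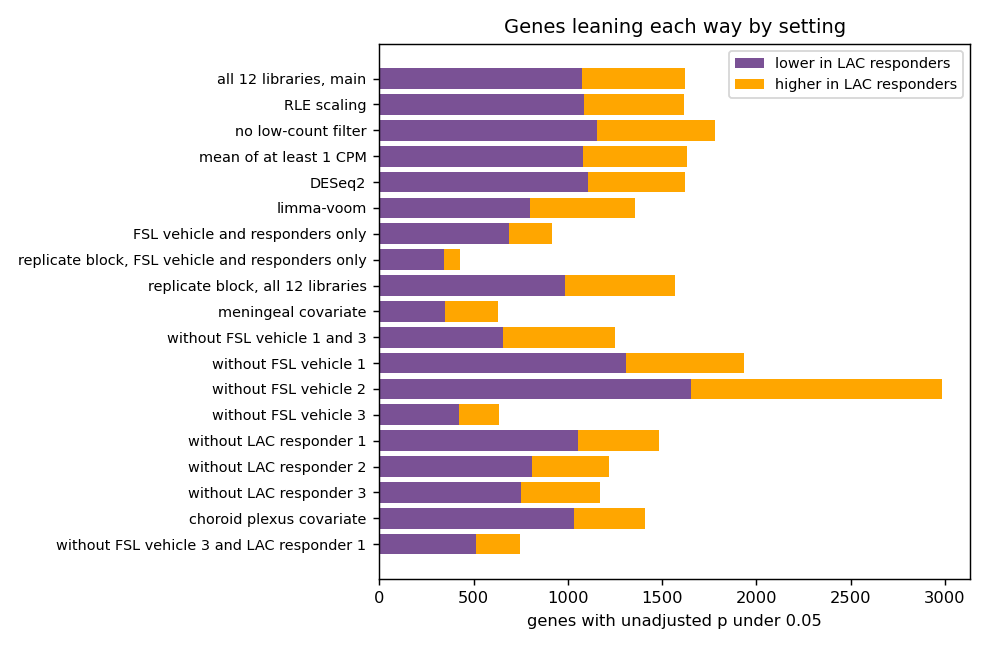
Number of genes with an unadjusted p under 0.05 under 19 settings, split into lower (purple) and higher (orange) in responders. The bars run from 426 genes with a replicate block in the compared groups to 2986 without FSL vehicle 2.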

How the data were processed

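RNA from ventral dentate gyrus was sequenced in 12 libraries, 3 per group, from ribosomal-RNA-depleted stranded total RNA per the labels' protocols. As deposited, each file lists raw counts of reads by gene symbol, not normalized by the authors. Per the submitters' processing notes the tools were FastQC 0.11.3, Trimmomatic 0.33, TopHat2 2.0.9, HTSeq 0.6.1 and edgeR 3.12.0, on the build rn5. The strand setting of the counting is not given in the sources used here. Reads of a gene and of an overlapping or antisense gene can therefore not be told apart. Lines for reads outside genes, ambiguous reads and reads with several alignments were left out of library sizes.

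From the counts, edgeR 4.0.16 (R 4.3.3) fitted all 12 libraries with 1 mean per group: TMM scaling, its default expression filter on groups, which kept 11750 of 17172 genes, and a robust two-sided quasi-likelihood test with Benjamini-Hochberg adjustment at 0.05. All 12 libraries entered so that the groups share an estimate of spread. CPM are on TMM-scaled library sizes, as single values or mean ± SD (n = 3), and fold changes are log2 with their standard error. A count of 3 in a library equals 0.368 to 0.487 CPM in these groups, a floor for counting error only. Alternatives used DESeq2 1.42.0, limma-voom (limma 3.58.1), other scaling and filters, the compared groups alone, marker covariates, the replicate number as a block and left-out libraries. The choroid plexus covariate and the fit without FSL vehicle 3 and responder 1 were chosen after seeing the data. On counts simulated for 11686 genes the test recovered 72% of 100 genes changed by 1 on the log2 scale and 90% of those changed by 2, with 12 false calls. Genes were drawn independently, so meningeal or choroid plexus genes did not rise together in a library as in these data. The simulation therefore does not give the recovery in these libraries.

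The comparison, the 39 gene lists and the rule for named genes were chosen with earlier results of these data known. The rule took the 12 higher and 12 lower genes of smallest p without overlap and a mean of at least 1 CPM, up to 3 members of smallest p per list, 11 genes named for stress, glutamate and carnitine, the 5 higher and 5 lower genes called when a library is left out, and 10 genes of smallest p among those that held in all such fits. Other list members were chosen after their values were seen. Some lists share genes, such as Igf2. Lists are described by counts and medians, with no set test.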

Additional observations from a re-analysis of the deposited data

How the results depend on the processing

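The count of 0 genes past the adjusted threshold held under the scaling, filter, limma-voom, compared-groups, covariate and replicate block alternatives. It was 178 with DESeq2, and from 0 to 349 with 1 library left out (349 without FSL vehicle 1). The count of 1619 genes with an unadjusted p under 0.05 was 917 in FSL vehicle and responders only, 631 with the meningeal covariate and 744 without FSL vehicle 3 and responder 1, and from 637 (without FSL vehicle 3) to 2986 (without FSL vehicle 2) with 1 library left out. Groups did not overlap in 1469 genes, in 6641 without FSL vehicle 1 and 3, and in 1941 to 4461 with 1 library left out, where fewer libraries make overlap rarer by construction. In other cases the cause was not tested. A lone FSL vehicle library is assumed to vary like the other groups.

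With the meningeal covariate 14 of 26 interferon, 9 of 17 MHC and 8 of 27 matrix genes had a positive log2 fold change, against 1, 0 and 0 without it. Of the genes named by the rule that were lower at an unadjusted p under 0.05, 7 turned positive: C1qc 0.11, Cdh5 0.14, Cubn 0.35, Gjb6 0.14, Myh11 0.30, Nes 0.18 and Ptprc 0.33. No setting moved the median of all genes by more than 0.1.

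The labels name no pairing by replicate number. Deviations of same-numbered libraries from their group means correlated at -0.33, -0.13 and -0.26. With 3 libraries a group, these values cannot show whether libraries were prepared in pairs. With the replicate block 1569 genes had an unadjusted p under 0.05 in the fit of all libraries and 426 in the compared groups only, with 0 past the adjusted threshold in both.

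Depth limits genes near the floor of 3 counts, and 3 libraries a group limit all tests.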

Other observations

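A pair of neuronal genes outside the rule for named genes drew attention after their values were seen. Tph2, the enzyme that starts serotonin synthesis in raphe neurons, stood at 0.487, 0.774 and 0.280 CPM in FSL vehicle and 1.84, 1.61 and 1.75 CPM in LAC responders (log2 fold change 1.71 ± 0.46). Its FSL vehicle levels are near the floor of 3 counts. Chrm2, a muscarinic acetylcholine receptor, had 11.7, 9.42 and 11.6 CPM against 42.1, 18.8 and 19.2 CPM (1.30 ± 0.35), with responder 1 far above the rest. Neither passed the adjusted threshold by edgeR.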
